A study of Mus musculus with 2 samples.

Results

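The 5 genes of the Ikaros family of transcription factors, Ikzf1 to Ikzf5, were compared by their open chromatin in mouse thymus. All 5 were found by symbol in the gene annotation (GENCODE M21, genome build mm10), among 21938 protein-coding genes. DNase I-seq, which cuts nuclear DNA where chromatin is open and sequences the ends, had been run on the whole thymus of male mice at an age of 2 months. The mice were B6CASTF1/J, hybrids of C57BL/6J and CAST/EiJ. There was 1 group of 2 samples, called replicate 1 and replicate 2, with no treatment and no second tissue, so that the comparisons below are between genes and not between conditions. The labels number a separate animal for each sample but give both the same donor identifier.

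Ikaros family proteins are zinc finger factors. A cluster of fingers near one end binds DNA, and a pair of fingers at the other end lets the proteins form dimers with themselves and with each other. Ikaros (Ikzf1) is needed for lymphocyte development and Aiolos (Ikzf3) acts in later lymphocyte stages. Helios (Ikzf2) and Eos (Ikzf4) are best known from regulatory T cells, while Pegasus (Ikzf5) is expressed in many tissues and prefers another DNA motif. In thymocytes Ikaros recruits the NuRD chromatin remodelling complex and other corepressors to its targets.

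Chromatin was open at the promoters of all 5 genes in both replicates, but the genes differed in how far the open chromatin reached. Ikzf1 (Ikaros) held 24 open regions in its body and the 50 kb either side, 14 of them in the body. Ikzf3 (Aiolos) held 17, with 9 in the body. Ikzf2 (Helios), with the longest body of the 5, held 3, all at its 5′ end or just upstream. Ikzf5 (Pegasus) had by far the highest promoter score, at a region that is also the promoter of its neighbour Acadsb, and no other region of its own.

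An open region here is a peak of the strict lists that the authors deposited for each sample, found in both replicates with an overlap of at least 1 bp. The lists held 63832 peaks in replicate 1 and 67929 in replicate 2, and after entries that overlapped within a list had been joined, 51709 regions were shared. Each peak carries the authors' signal score, which is a whole multiple of a small step in each sample. The sequencing depth is unknown. The median score was 1.58 in replicate 1 and 1.37 in replicate 2, and shared regions were somewhat higher in replicate 1, with a median log2 ratio of replicate 2 over replicate 1 of -0.44 at the family's 59 regions and -0.22 over all shared regions. A standard deviation over the replicates therefore includes this offset. In whole tissue, fewer cells with an open site and a less open site per cell cannot be told apart. The promoters of 8 of 8 T cell markers were open in both replicates, against 1 of 5 for B cells (Pax5), 0 of 5 for macrophages and granulocytes, 1 of 5 for thymic epithelium (Epcam) and 3 of 4 for fibroblasts and endothelium. Csf1r, S100a8, Foxn1, Klf1 and Ms4a1 had no promoter peak in either replicate.

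The sequences below are examples of the regions described for each gene, without the promoter regions of Ikzf3 and Ikzf4. They were read from the mm10 genome in the family gene's direction of transcription, 5′ to 3′. Footprints of both replicates are in capitals. A footprint is a short stretch protected from cutting inside an open region, as a bound protein would leave. Footprints of the replicates that overlapped by at least 1 bp were joined. A capital base may thus be listed in 1 replicate alone. Annotated exons are left out, apart from 1 site of 30 bases.
The Ikzf5 promoter had the highest score of the family, and this is the stretch between the start of Ikzf5 and that of its divergent neighbour Acadsb.
Ikzf5 at chr7:131410522-131410600, minus strand: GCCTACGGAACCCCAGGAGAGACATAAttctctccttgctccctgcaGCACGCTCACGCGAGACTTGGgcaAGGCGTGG
The strongest Ikzf2 promoter region lay just upstream of the gene, with long CG-rich stretches and 2 footprints.
Ikzf2 at chr1:69687565-69687864, minus strand: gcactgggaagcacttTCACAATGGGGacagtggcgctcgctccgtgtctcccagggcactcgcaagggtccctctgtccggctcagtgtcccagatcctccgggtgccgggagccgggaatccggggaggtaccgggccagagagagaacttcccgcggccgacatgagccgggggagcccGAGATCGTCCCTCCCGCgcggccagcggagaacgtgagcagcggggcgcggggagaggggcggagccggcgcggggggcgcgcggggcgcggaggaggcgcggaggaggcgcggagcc
The strongest intronic region of Ikzf3 held 4 footprints.
Ikzf3 at chr11:98527191-98527490, minus strand: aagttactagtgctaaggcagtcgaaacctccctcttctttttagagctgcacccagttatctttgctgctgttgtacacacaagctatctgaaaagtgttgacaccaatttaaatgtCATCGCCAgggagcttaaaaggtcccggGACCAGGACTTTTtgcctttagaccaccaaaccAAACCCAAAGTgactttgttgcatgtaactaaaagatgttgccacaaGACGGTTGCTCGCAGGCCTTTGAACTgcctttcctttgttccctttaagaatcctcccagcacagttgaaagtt
The strongest region inside Ikzf4 was intronic and scored above the promoter.
Ikzf4 at chr10:128637081-128637360, minus strand: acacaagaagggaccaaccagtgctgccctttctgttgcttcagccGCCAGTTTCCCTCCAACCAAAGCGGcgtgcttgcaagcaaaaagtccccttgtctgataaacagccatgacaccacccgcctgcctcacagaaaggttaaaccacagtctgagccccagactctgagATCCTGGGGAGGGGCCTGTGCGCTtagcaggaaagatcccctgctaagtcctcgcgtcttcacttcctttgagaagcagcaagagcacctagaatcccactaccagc
This intronic region of Ikzf1 held a match to the CTCF motif inside a footprint.
Ikzf1 at chr11:11742841-11743020, plus strand: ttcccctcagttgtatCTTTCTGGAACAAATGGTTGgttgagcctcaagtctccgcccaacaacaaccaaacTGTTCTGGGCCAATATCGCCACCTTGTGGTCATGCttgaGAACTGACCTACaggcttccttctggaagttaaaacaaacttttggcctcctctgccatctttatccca
The last is a site in the strongest Ikzf1 promoter region, with the Ikaros motif letters TGGGAA at chr11:11686239-11686244 inside a footprint.
Ikzf1 at chr11:11686227-11686256, plus strand: gtGAAAGAAAGCTGGGAATTGCTCCGCAGC

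The promoter of a gene was described by the highest peak within 1000 bp of any of its annotated transcription start sites (TSSs). Ikzf5 reached a promoter score of 20.3 in replicate 1 and 16.3 in replicate 2. Ikzf1 reached 8.13 and 5.70, in the same order of replicates. Ikzf3 reached 6.48 and 3.94. Both Ikzf5 values lay above all values of Ikzf1 and Ikzf3, which overlapped each other.

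Ikzf2 reached promoter scores of 3.78 in replicate 1 and 2.63 in replicate 2. Ikzf4, the lowest, reached 1.66 and 1.15. As means, the promoter scores were 18.3 ± 2.85 for Ikzf5, 6.91 ± 1.71 for Ikzf1, 5.21 ± 1.79 for Ikzf3, 3.20 ± 0.815 for Ikzf2 and 1.40 ± 0.361 for Ikzf4 (SD, n = 2 each). Of the 10 pairs of family genes, 9 had values that did not overlap, and the exception was Ikzf1 with Ikzf3. With 2 samples in 1 group no test between samples was possible, so this is a description of the values.

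Taken within a replicate, Ikzf5 exceeded Ikzf1 by 1.32 on the log2 scale in replicate 1 and by 1.52 in replicate 2. Ikzf1 exceeded Ikzf3 by 0.33 and 0.53 and Ikzf2 by 1.10 and 1.12. Ikzf2 exceeded Ikzf4 by 1.19 in each. The order of the 5 genes was the same in each replicate.

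**Figure D1:**
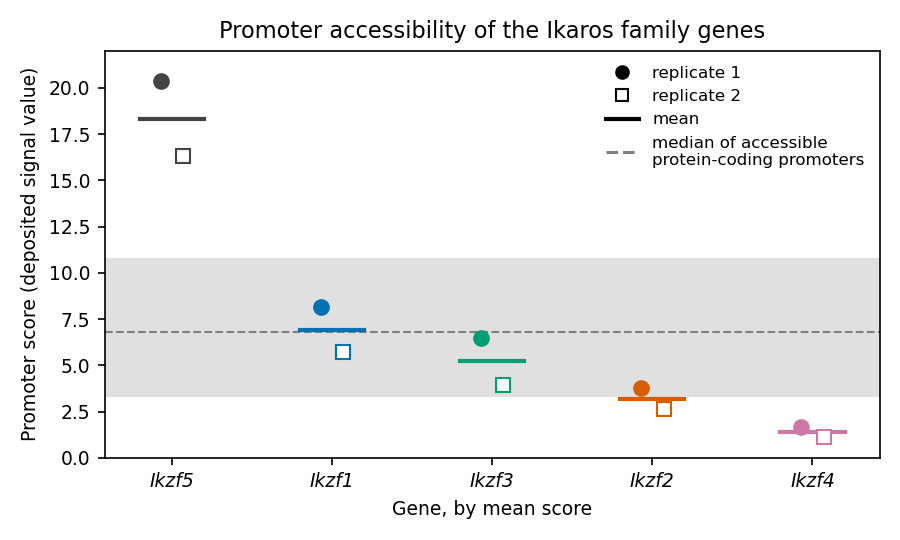
Promoter score of each Ikaros family gene (y axis, the authors' signal score of the highest peak within 1000 bp of a TSS) in each replicate, in order of the mean; the grey band spans the quartiles of the promoters that were open in both replicates. Ikzf5 lay above the band at 20.3 and 16.3, Ikzf1 and Ikzf3 within it, and Ikzf4 below it at 1.66 and 1.15. The Ikzf5 region is also the promoter of Acadsb.

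Against the whole genome, 5 of 5 family promoters were open in both replicates, as were those of 59% of protein-coding genes. Among the promoters that were open in both, the median score was 6.83, with quartiles of 3.36 and 10.7. The mean of Ikzf1 was next to that median. Ikzf5 ranked 380 of all 21938 genes by promoter score, Ikzf1 6387, Ikzf3 7973, Ikzf2 9826 and Ikzf4 11578. Ikzf5 alone lay above the upper quartile, and Ikzf2 and Ikzf4 lay below the lower one.

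The Ikzf1 value depends on which start site is meant. The annotation gives Ikzf1 (chr11:11685003-11772926, plus strand) 5 start sites, and the strongest promoter region, chr11:11686041-11686280, lies 1.16 kb into the gene. At the gene's outermost 5′ end, near the start of the noncoding gene Gm11999 on the other strand, a wide region at chr11:11684783-11685820 scored 2.37 in replicate 1 and 1.34 in replicate 2. Counted from that end alone, the mean promoter score of Ikzf1 was 1.85, and 8 of the 10 pairs kept their order, with Ikzf1 then below Ikzf3 and Ikzf2.

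A further start site is annotated outside GENCODE. By mean score, the highest region that GENCODE M21 places in an intron of Ikzf1 was chr11:11690021-11690680. It holds an Ikzf1 transcript start in the RefSeq annotation of the same build, which lists curated and predicted starts within 1000 bp. Its score was 5.44 in replicate 1 and 2.22 in replicate 2, a wider spread than at the promoter. The third highest region in the body by mean score, and the second in replicate 2, was the intronic chr11:11742841-11743020, printed above, with 3.34 and 3.47, and it was one of the 10 family regions that were not higher in replicate 1.

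At the other genes the promoter regions were simpler. Ikzf3 (chr11:98464902-98546031, minus strand) had 1 promoter region, chr11:98545701-98546140, with 57 CpG dinucleotides and 70.0% GC. Ikzf2 (chr1:69531214-69687245, minus strand) had 2, chr1:69687121-69687400 with 3.46 in replicate 1 and 2.13 in replicate 2, and chr1:69687501-69687880 with 3.78 and 2.63. Those of Ikzf2 held 29 and 50 CpG.

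Ikzf4 (chr10:128630843-128645991, minus strand) was the gene whose promoter was not its strongest region. Its promoter region, chr10:128645721-128646040, scored 1.66 in replicate 1 and 1.15 in replicate 2. The intronic region chr10:128637081-128637360 scored 4.73 and 3.32, higher in both replicates. An exonic region beside it, chr10:128636561-128636980, scored 1.90 and 1.42. The promoter region of Ikzf4 contains a CA repeat, and 90.3% of its 31-base words occur once in the genome, whereas 54 of the family's 59 regions consist of such words entirely. The Suox promoter, in the same window, also had 90.3%, and it scored 6.47 in replicate 1 and 5.09 in replicate 2. Whether repeated words lowered the score of the Ikzf4 promoter was not tested. Upstream, the region at the start of the noncoding gene Gm49782, chr10:128668881-128669100, scored 1.94 and 2.14, also above the Ikzf4 promoter in both replicates, and lies 253 bp from the start of a predicted RefSeq transcript of Ikzf4.

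Ikzf5 (chr7:131388652-131410521, minus strand) had its promoter in a single region of 220 bp, chr7:131410481-131410700. The same region is the promoter of Acadsb, an enzyme of branched amino acid breakdown, which starts on the opposite strand. Its score cannot be divided between Ikzf5 and Acadsb. The region held 6 footprints, which covered 141 of its bases.

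The number of open regions ordered the family differently from the promoter score. Within the body and 50 kb either side, 24 regions were shared by the replicates at Ikzf1, 17 at Ikzf3, 12 at Ikzf4 and 3 each at Ikzf2 and Ikzf5. With 100 kb either side the lead of Ikzf1 was gone, at 24 regions each for Ikzf1, Ikzf3 and Ikzf4. The median over all protein-coding genes was 5 within 50 kb. There Ikzf1 ranked 158 of all genes and Ikzf3 916, while Ikzf2 and Ikzf5, tied at 3, ranked 13877. Before sharing was required, replicate 1 held 29, 21, 14, 5 and 3 peaks at Ikzf1, Ikzf3, Ikzf4, Ikzf2 and Ikzf5, and replicate 2 held 42, 21, 13, 4 and 3.

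The lengths searched were unequal, since the bodies span 156 kb at Ikzf2, 87.9 kb at Ikzf1, 81.1 kb at Ikzf3, 21.9 kb at Ikzf5 and 15.1 kb at Ikzf4. Per 100 kb searched there were 12.8 shared regions at Ikzf1, 10.4 at Ikzf4, 9.39 at Ikzf3, 2.46 at Ikzf5 and 1.17 at Ikzf2, with a median of 3.84 over all genes. The longest gene had the fewest regions per 100 kb. The FDR tracks, which do not depend on the cutting of peaks into entries, gave a like order. The share of bases at or under a false discovery rate of 0.001 was 6.39% in replicate 1 and 6.60% in replicate 2 at Ikzf1, 5.50% and 5.07% at Ikzf3, and 5.52% and 4.76% at Ikzf4. It was 2.76% and 2.75% at Ikzf5, and 0.603% and 0.448% at Ikzf2.

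**Figure D2:**
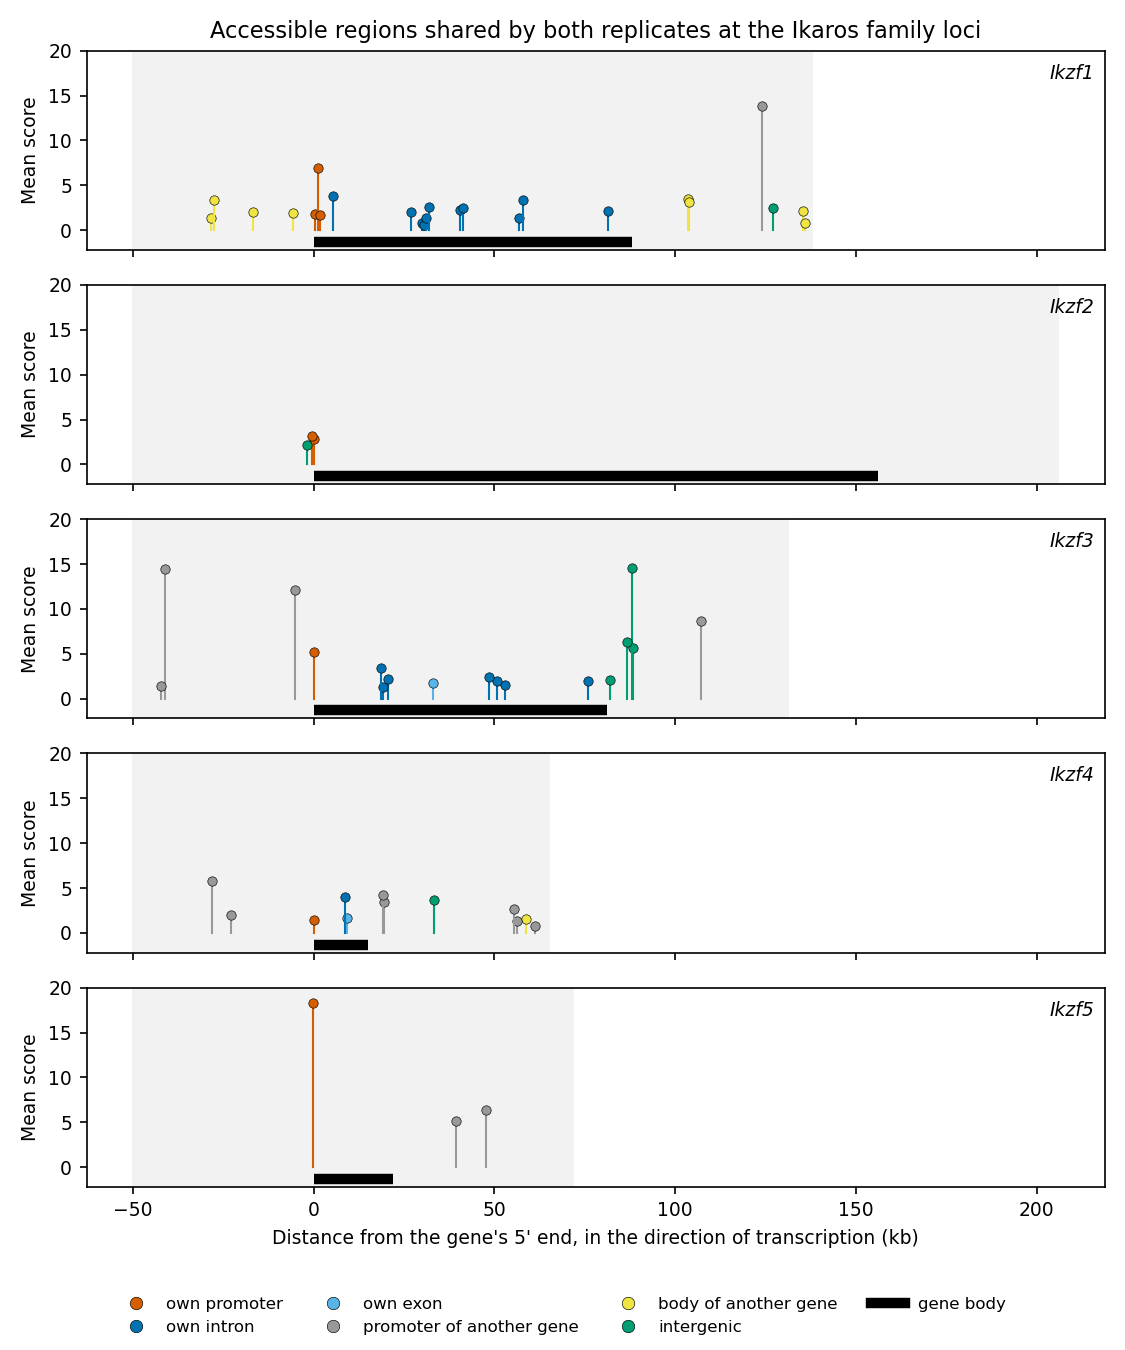
Shared open regions at each gene, as the distance of the region's midpoint from the gene's 5′ end in kb (x axis) and the mean score of the replicates (y axis), coloured by position; the black bar is the gene body and the shading the stretch searched. Regions run through the bodies of Ikzf1 and Ikzf3, with 14 and 9, while the 156 kb body of Ikzf2 holds none past its start.

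By position, the 59 regions of the family comprised 8 at the genes' own promoters, 19 in their introns, 2 over their exons, 14 at promoters of other genes, 9 in bodies of other genes and 7 between genes. All but 1 of the 19 intronic regions belonged to Ikzf1 (11) and Ikzf3 (7), and the other to Ikzf4. In the gene bodies alone, 14 regions at Ikzf1 came to 15.9 per 100 kb, 9 at Ikzf3 to 11.1, 3 at Ikzf4 to 19.8, 1 at Ikzf5 to 4.57 and 1 at Ikzf2 to 0.641. Over all protein-coding bodies together the density was 3.39 per 100 kb.

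Ikzf1 carried regions along most of its length. After the region at the RefSeq start came 1 at 26.9 kb from the 5′ end, 4 between 29.8 and 32.0 kb, a pair at 40.6 and 41.4 kb, a pair at 56.8 and 57.9 kb and 1 at 81.3 kb. Upstream, 4 regions lay in the body of Gm11999, between 5.60 and 28.3 kb before the gene. Downstream, beyond the gene's end, were a pair in Fignl1, the Fignl1 promoter with 16.7 in replicate 1 and 11.0 in replicate 2, 1 between genes and 2 in Ddc. Fignl1, a DNA repair ATPase, thus had the highest region in the Ikzf1 window, and the Ddc promoter had no peak.

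Ikzf1 was also where the replicates differed most in number. Replicate 2 had 14 peaks that replicate 1 lacked, all 14 in the gene body, with scores between 0.431 and 1.39. Replicate 1 had 5 that replicate 2 lacked, with scores between 0.748 and 1.90. Most were low beside the replicates' medians, and 5 of the 14 overlapped an entry in the looser list of replicate 1. At the other 4 genes each replicate had at most 4 peaks of its own. The Ikzf1 body held 18 peaks in replicate 1 and 32 in replicate 2, so its count of 14 depends on requiring both.

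At Ikzf3, the 3 strongest regions of the body were the promoter, the intronic chr11:98527161-98527520 with 4.28 in replicate 1 and 2.50 in replicate 2, and the intronic chr11:98497421-98497820 with 3.05 and 1.88. Outside the gene, GENCODE leaves 4 regions between genes, with mean scores between 2.05 and 14.6, and the highest of them was also the highest of the whole window. RefSeq predicts a start of Mien1, the next gene, within 1000 bp of 3 of these 4.

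The flanks of Ikzf3 held the promoters of Ormdl3 at 16.6 in replicate 1 and 12.3 in replicate 2, Zpbp2 at 14.9 and 9.26 and Mien1 at 9.91 and 7.41. Each of these exceeded the Ikzf3 promoter in both replicates. Ormdl3 encodes a regulator of sphingolipid synthesis and Zpbp2 a protein of sperm. The promoter of Erbb2, a growth factor receptor gene in the same window, had no peak in either replicate.

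Of the 12 regions around Ikzf4, 7 were promoters of other genes, the highest being that of Suox with 6.47 in replicate 1 and 5.09 in replicate 2. The count is thus largely one of neighbours: within 25 kb either side it was 7, and within 100 kb 24. At Ikzf5 the other 2 regions were the promoters of 2310057M21Rik and Pstk. At Ikzf2 the only region that was not a promoter was chr1:69689061-69689280, 1.82 kb upstream of the gene, with 1.93 and 2.46. With the looser lists, Ikzf2 had 8 shared regions in place of 3, and 5 in the body in place of 1, so that weaker openings were listed there.

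**Figure D3:**
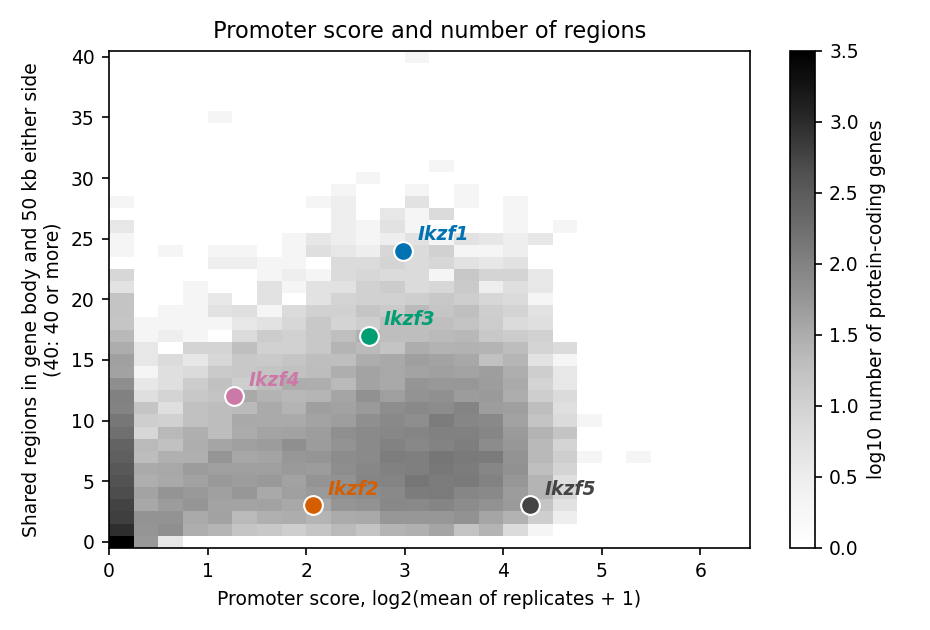
Mean promoter score on a log2(score + 1) scale (x axis) against the number of shared regions in the body and 50 kb either side (y axis, 40 standing for 40 or more), with all protein-coding genes as grey shading by their number in each cell and the family as labelled points. Ikzf1, with 24 regions, and Ikzf5, with 3, stand at different edges of the cloud.

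The genes whose values were nearest to each family member were found over 4 values, the promoter score and the number of peaks in each replicate, each as log2(value + 1). The nearest to Ikzf1 were BC025920 and Sbno2, to Ikzf3 Sit1 and Adgre5, to Ikzf2 Ccdc184 and Fbxo22, to Ikzf4 Itga5 and Cers1, and to Ikzf5 Calu and Bmt2. Sit1, at a distance of 0.106 from Ikzf3, had promoter scores of 6.12 in replicate 1 and 3.79 in replicate 2, with 21 and 22 peaks. The nearest to Ikzf1 was farther off, at 0.269, and had 29 and 35 peaks. No other family member was among these nearest genes.

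Footprints followed the open regions. Footprints of both replicates, joined where they overlapped, numbered 58 at Ikzf1, 58 at Ikzf3, 36 at Ikzf4, 20 at Ikzf5 and 9 at Ikzf2. With 100 kb either side Ikzf4 led with 90, then Ikzf3 with 79 and Ikzf1 with 58. Of the 181 within 50 kb, 149 lay in the shared regions. Of the 59 regions, 53 held at least 1, which is 89.8% (95% Wilson interval 79.5 to 95.3), against 85.5% of all shared regions. The family's share was thus near that of the genome. Ikzf1 and Ikzf3 had the same number, although Ikzf3 had fewer regions, with 2.71 footprints per region at Ikzf3 and 1.96 at Ikzf1. These counts include the flanks. At Ikzf3 a region between genes held 7, the most in the window, and the promoters of Ormdl3 and Zpbp2 held 5 each. No region in the Ikzf3 body held more than 4. At Ikzf1 the Fignl1 promoter held 4. The higher rate at Ikzf3 is that of body and flanks together. Among regions in the gene bodies alone, Ikzf3 did not have the higher rate.

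The regions with no footprint of both replicates were 5 at Ikzf1 and 1 at Ikzf3. Each Ikzf2, Ikzf4 and Ikzf5 region held at least 1. Ikzf5 was the densest, with 6.33 per region and a median of 6, and 8 in the promoter of 2310057M21Rik. Over the genome the share of regions with a footprint went with the score, at 66.9% in the lowest score quartile of shared regions and 99.8% in the highest, and 15 of the 15 family regions in the highest quartile held one. Read depth, which decides whether a footprint can be found, is unknown here.

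**Figure D4:**
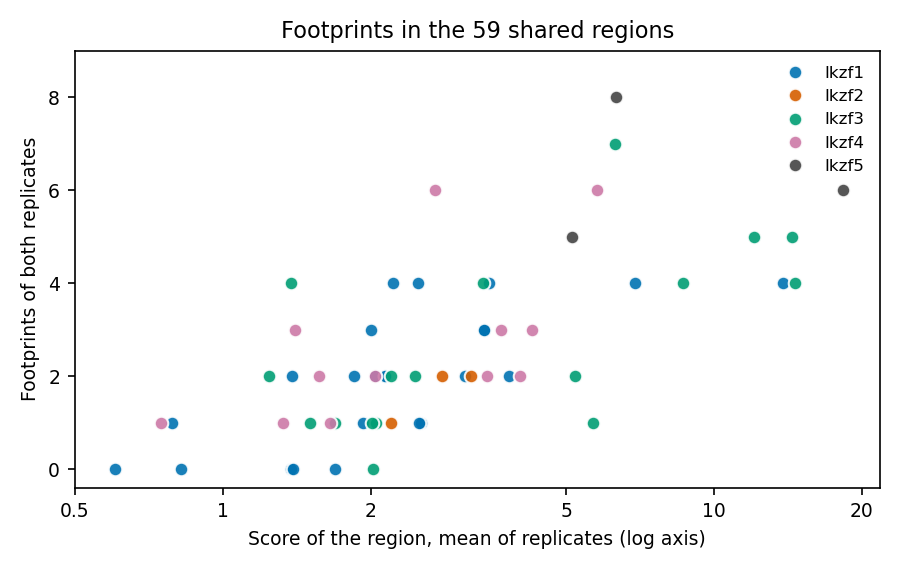
Number of footprints found in both replicates (y axis) against the mean score of the region on a log axis (x axis) for each of the 59 shared regions, coloured by gene. The 6 regions with none have means between 0.604 and 2.02, and every region above that has at least 1.

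The 59 regions were searched for 10 short motifs on both strands, in the 200 bp around the region's midpoint. The Ikaros motif (TGGGAA, which the RBPJ motif of Notch signalling also contains) was found in 12 of 59 regions, 20.3% (95% Wilson interval 12.0 to 32.3), against 16.5% of all shared regions. Of these 12, 8 were at Ikzf1, 2 at Ikzf3 and 1 each at Ikzf4 and Ikzf5. In the strongest Ikzf1 promoter region the match was inside a footprint of both replicates, as printed above, and it lies in an exon of curated RefSeq transcripts. The share of regions with the motif was 10.2% in the central 100 bp and 35.6% over whole regions, so that it depends on the window. The 16.5% of all shared regions is for the 200 bp window alone and cannot be set against these shares. Searched over whole regions, the family held 24 Ikaros matches in 21 regions, and 6 of the 24 overlapped a footprint, against 23.0% of the matches in all shared regions.

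The motifs of other T cell factors were found about as often as elsewhere. RUNX (TGTGGT) was in 12 regions, 20.3% against 16.9% of all regions, TCF/LEF (CTTTGA) in 9, 15.3% against 11.6%, and the motif of GATA factors (AGATAA) in 4, 6.78% against 5.4%. ETS (CCGGAA) was in 6, 10.2% against 11%, and STAT (TTCNNNGAA) in 3, 5.08% against 4.79%. For SP/KLF (GGGCGG), a motif of CG-rich promoters, there were 15, 25.4% against 26.8%, and for AP-1 (TGANTCA) 3, 5.08% against 4.92%. The E-box (CAGNTG), the motif of E proteins, was in 35 regions, 59.3% (46.6 to 70.9) against 49.7%, with 18 of the 24 Ikzf1 regions and 11 of the 17 Ikzf3 regions among them. All of these shares had intervals that held the share of all regions. In the central 100 bp the family's shares were lower for the E-box at 44.1%, SP/KLF at 15.3%, and GATA and AP-1 at 1.69% each. The shares of all regions above are for the 200 bp window, so these cannot be set against them.

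The CTCF motif gave the one interval that did not hold the share of all regions. CTCF, which binds at many chromatin loop anchors, had a match in 3 of 59 regions, 5.08% (1.74 to 13.9), against 16% of all shared regions. All 3 were at Ikzf1, in the intron at chr11:11742930-11742941, in Fignl1 at chr11:11788594-11788605 and in Ddc at chr11:11820405-11820416. Each overlapped a footprint, as did 90.6% of CTCF matches over the whole length of all shared regions. At the first, the last bases of the CTCF match also read as a RUNX match at chr11:11742937-11742942, and at the last an Ikaros match overlaps it at chr11:11820402-11820407, so these cannot be counted as separate sites. No match at the other 4 genes says only that these letters were not in the windows searched, and regions of 1 locus share their surroundings.

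Promoters of genes for partners of Ikaros proteins are set beside those of all protein-coding genes, of which 59% were open in both replicates, with a median score of 6.83 among those open. In the NuRD complex, 13 of 13 genes were open in both replicates, with a median score of 11.1, and the highest were Gatad2a, a zinc finger subunit, at 20.8 in replicate 1 and 18.8 in replicate 2, and Mbd3, a methyl-CpG-binding domain subunit, at 22.1 and 16.5. Among CtBP, Sin3 and Brg1 genes 4 of 5 were open in both, led by Smarca4 (Brg1), the ATPase of a chromatin remodeller, at 24.3 and 16.5, and Sin3a, a corepressor scaffold, at 18.8 and 14.9. Ctbp2 had a peak in replicate 2 alone, at 0.656. Of the ubiquitin ligase that degrades human Ikaros and Aiolos under lenalidomide, 5 of 5 genes were open, led by Ddb1 at 19.3 and 14.7 and Rbx1 at 19.1 and 12.9.

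Of 18 genes known as Ikaros targets or bound by it in lymphocytes, 14 were open in both replicates, 77.8% against 59% of all genes. The median score over all 18, open or not, was 4.62. It was 1.96 over all protein-coding genes and 6.83 among the promoters open in both replicates. Bcl2l1, which protects cells from apoptosis, was highest with 23.5 in replicate 1 and 16.6 in replicate 2, then Cd8a, the T cell coreceptor, with 10.2 and 6.92. Il10, a cytokine, Il2ra, the interleukin receptor of activated T cells, and Igll1, of the pre-B cell receptor, had no promoter peak in either replicate. Vpreb1, also of the pre-B cell receptor, was open in both, at 6.40 in replicate 1 and 4.12 in replicate 2. Dntt, the enzyme that adds bases at antigen receptor joints, had one in replicate 1 alone, at 3.07. The lists are background for the family and were not tested against other genes.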

How the data were processed

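The authors deposited, per sample, 2 peak lists, a footprint list and an FDR track, on mm10 per the labels. Each deposited peak has a signal score, the deposited FDR tracks a q-value per stretch under 0.05, and the deposited footprints are positions, with a constant score of 0.01. The sources used here do not give the aligner, peak caller, footprint tool or depth, or how reads of CAST/EiJ alleles were aligned.

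The shorter (strict) peak list of each sample was used. Overlapping entries were joined, keeping the highest score. Genes came from GENCODE M21 and sequence from GRCm38.p6, with RefSeq transcript starts as a second annotation. Intervals are 95% Wilson intervals and cover counting error only. Scripts used Python 3.11.15, pandas 2.3.3 and pysam 0.24.0 and were tested on simulated data. The 5 genes, the lists and the motifs were chosen with earlier results of these data known. The text names the 3 highest body regions per gene, and per list the 2 highest genes and the first with no promoter peak. Other regions and genes were named after their values were seen. With 1 group there was no test and no pairing. Some items are not reported here.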

Additional observations from a re-analysis of the deposited data

How the results depend on the processing

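Of 226 recomputed values of 40 results, 34 were classed as moved and 192 were not. A promoter score was classed as moved if it changed by more than the replicate spread. A count was so classed if it changed by more than 1.5 times. A share was so classed if it fell outside the Wilson interval of the share first obtained. With the looser lists Ikzf1 had 24 regions in its body, Ikzf2 had 8 in all and 5 in its body, and 100% of the CtBP, Sin3 and Brg1 genes were open. With the 5′ end only, the Ikzf1 promoter score was 1.85. With 25 kb either side Ikzf4 had 7 regions and 18 footprints and Ikzf5 12 footprints. With 100 kb, Ikzf2 had 7 regions and 17 footprints and Ikzf4 24 regions and 90 footprints, so that Ikzf1, with 24 and 58, no longer led. The Ikaros motif was in 10.2% of central 100 bp windows and 35.6% of whole regions. In the central windows the E-box share was 44.1%, SP/KLF 15.3%, and GATA and AP-1 1.69% each. No share of all regions is given for these windows. In single replicates the regions numbered 29 to 42 at Ikzf1 (18 to 32 in its body) and 4 to 5 at Ikzf2 (2 in its body in each). Footprints numbered 127 to 160 at Ikzf1, 25 to 31 at Ikzf2, 120 to 134 at Ikzf3, 58 to 75 at Ikzf4 and 36 to 38 at Ikzf5, since positions of 1 replicate were then enough. The corepressor share was 80.0% to 100%. No paired analysis was possible because there is 1 group. The number of replicates and the unknown depth limit all values: 2 animals give a range and no test.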

Other observations

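Promoters around the family genes covered a wide range of scores. Rab5b, a small GTPase gene beside Ikzf4, reached 16.0 in replicate 1 and 10.0 in replicate 2, although its promoter lies outside the stretch searched for Ikzf4. Rps26, a ribosomal protein gene next to Ikzf4, reached 3.72 and 4.90, values that come from a different region near its start in each replicate. Fgfr2, a growth factor receptor gene, reached 0.578 and 0.656, while Grb7, an adaptor gene beside Ikzf3, had a peak in replicate 2 alone, at 0.304.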
